A study of Rattus norvegicus with 8 samples.

Results

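The liver of male Sprague-Dawley rats aged 21 days was examined for 34 genes of the interferon response and of antigen processing, after maternal exposure to a mixture of contaminants. The genes were taken from a written list and were assigned to 4 roles, namely antigen processing (9 genes), regulators and sensors (8), antiviral effectors (12), and a mixed set of guanylate-binding proteins, a chemokine and poly-ADP-ribosylation partners (5). For each gene the probe that was brightest in the liver channel was used. A named probe was present for 33 of the 34 genes, and 25 of them were bright enough to be tested, among 10566 genes or unnamed probes tested in all. The list was drawn up with earlier results of these arrays known, so that measured differences may have influenced the choice of genes.

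Control dams received corn oil, the vehicle. The dams of the mixture group, labelled 0.5MAhR, received a mixture of polychlorinated biphenyls, methyl mercury and organochlorine pesticides (0.5 mg/kg/day) plus agonists of the aryl hydrocarbon receptor (non-ortho-polychlorinated biphenyls, dioxins and furans), which together amounted to 6.3 ng/kg/day of dioxin toxic equivalents. In both groups dosing covered pregnancy and nursing, and pups stayed with their own mothers. Every array held the pooled RNA of 2 pups. Each group had 8 pups, in 4 control pools (numbered 5 to 8) or 4 mixture pools (numbered 1 to 4). Litters were not given, so p-values measure only the spread between these pools, in which single pups cannot be seen. Values are log2 ratios of liver signal (Cy5) over the signal of a reference RNA that was made from 14 rat cell lines and shared by all arrays (Cy3), and a difference is always mixture minus control on that log2 scale. RNA came from whole liver, so that fewer cells of a type and less RNA per cell cannot be told apart.

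Interferons are secreted proteins that signal through JAK kinases and STAT transcription factors. Type I interferons act largely through a complex that includes Stat2 and Irf9 and binds the interferon-stimulated response element, while interferon gamma acts largely at the gamma-activated sequence. The induced genes include antiviral proteins that block steps of viral growth, and the immunoproteasome, peptide transporter and chaperones that supply peptides to MHC class I. In liver, hepatocytes, Kupffer cells (the resident macrophages) and endothelial cells all respond to interferon.

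Promoter windows are shown for the 5 genes with the largest differences below, 250 bases before to 50 bases after the RefSeq start, on assembly GRCr8. The interferon-stimulated response element core GAAA-NN-GAAA, where N is any base, searched on both strands, is in capitals. It was present in 20 of the 29 listed genes that had a window (69.0%), against 3.77% of all 27457 windows of 300 bases. The gamma-activated core TTCNNNGAA, not capitalised here, was in 7 of 29 (24.1%), against 8.68% of all windows. Printed in the direction of transcription, the windows cover chr6:128355062-128355361 on the plus strand for Ifi27, chr12:41330216-41330515 on the plus strand for Oas1a, chr6:48788071-48788370 on the minus strand for Rsad2, chr20:4656982-4657281 on the minus strand for Psmb8 and chr20:4668750-4669049 on the plus strand for Psmb9.
Ifi27: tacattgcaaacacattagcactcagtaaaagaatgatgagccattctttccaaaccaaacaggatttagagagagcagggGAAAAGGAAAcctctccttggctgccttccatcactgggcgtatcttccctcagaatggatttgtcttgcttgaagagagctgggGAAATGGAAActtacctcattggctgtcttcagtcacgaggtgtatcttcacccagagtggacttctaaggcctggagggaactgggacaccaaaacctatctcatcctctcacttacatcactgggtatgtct
Oas1a: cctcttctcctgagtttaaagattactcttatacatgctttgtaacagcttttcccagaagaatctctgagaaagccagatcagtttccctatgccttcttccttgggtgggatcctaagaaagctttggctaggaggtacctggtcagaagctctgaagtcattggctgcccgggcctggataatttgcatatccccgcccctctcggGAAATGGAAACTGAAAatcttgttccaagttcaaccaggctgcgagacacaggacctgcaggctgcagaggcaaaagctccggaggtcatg
Rsad2: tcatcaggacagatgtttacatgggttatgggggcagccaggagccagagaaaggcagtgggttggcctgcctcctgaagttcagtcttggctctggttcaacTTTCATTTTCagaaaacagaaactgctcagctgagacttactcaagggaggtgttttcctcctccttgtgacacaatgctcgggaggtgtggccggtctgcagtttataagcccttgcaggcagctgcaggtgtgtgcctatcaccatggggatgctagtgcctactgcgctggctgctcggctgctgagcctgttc
Psmb8: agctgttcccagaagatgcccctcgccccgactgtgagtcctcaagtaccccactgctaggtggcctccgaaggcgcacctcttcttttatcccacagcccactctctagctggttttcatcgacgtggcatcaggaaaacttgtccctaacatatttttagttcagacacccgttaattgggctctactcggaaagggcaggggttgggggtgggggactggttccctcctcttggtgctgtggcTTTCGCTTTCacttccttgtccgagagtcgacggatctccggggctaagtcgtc
Psmb9: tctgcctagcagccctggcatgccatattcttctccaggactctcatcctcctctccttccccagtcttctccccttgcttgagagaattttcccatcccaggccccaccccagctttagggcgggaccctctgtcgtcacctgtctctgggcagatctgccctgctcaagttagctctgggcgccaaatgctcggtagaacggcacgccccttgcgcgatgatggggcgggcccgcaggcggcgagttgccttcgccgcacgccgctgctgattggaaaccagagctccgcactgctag
The matches begin 169 and 84 bases before the start in Ifi27, and 41 and 35 bases before it in Oas1a, where they overlap each other. Single matches begin 147 bases before the start in Rsad2 and 4 bases before it in Psmb8. By role, the core was found in 7 of 9 antigen processing windows, 2 of 6 of the regulators and sensors, 7 of 9 of the antiviral effectors and 4 of 5 in the mixed set. The Psmb9 window held neither core and so has no capitals. It shares 44 bases with the window of Tap1, which is read in the opposite direction and holds 1 match, outside those bases. A match describes letters only and does not show a site in use.

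None of the 25 tested genes passed the threshold, an adjusted p of 0.05 over all genes tested. Over all 10566 the limma fit called 5 genes (0.0473%), all of them higher. The smallest adjusted p among the 25 was 0.436, for Psmb9. In direction, 19 of the 25 had a positive difference and 6 a negative one, and the median difference was 0.17, where over all genes tested the median was -0.01 and 46.8% were positive. These counts describe the tested genes only: Irf9, Usp18, Oas1a and Parp9 were bright enough through the mixture arrays alone, and of the other 21 genes 16 were positive. An unadjusted p under 0.05 was reached by 3 of the 25 (12%), namely Ifi27, Psmb8 and Psmb9, beside 6.35% of all genes. In none of the 25 did the control and mixture pools separate without overlap, as they did for 1.32% of all genes. All differences below are therefore values and not calls. The exposure itself was plain on the same arrays, since Cyp1a1, a standard target of the aryl hydrocarbon receptor, lay between 0.30 and 1.55 in the control pools and between 4.15 and 5.47 in the mixture pools, a difference of 4.04 ± 0.31 (SE, adjusted p = 0.00280, limma).

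**Figure D1:**
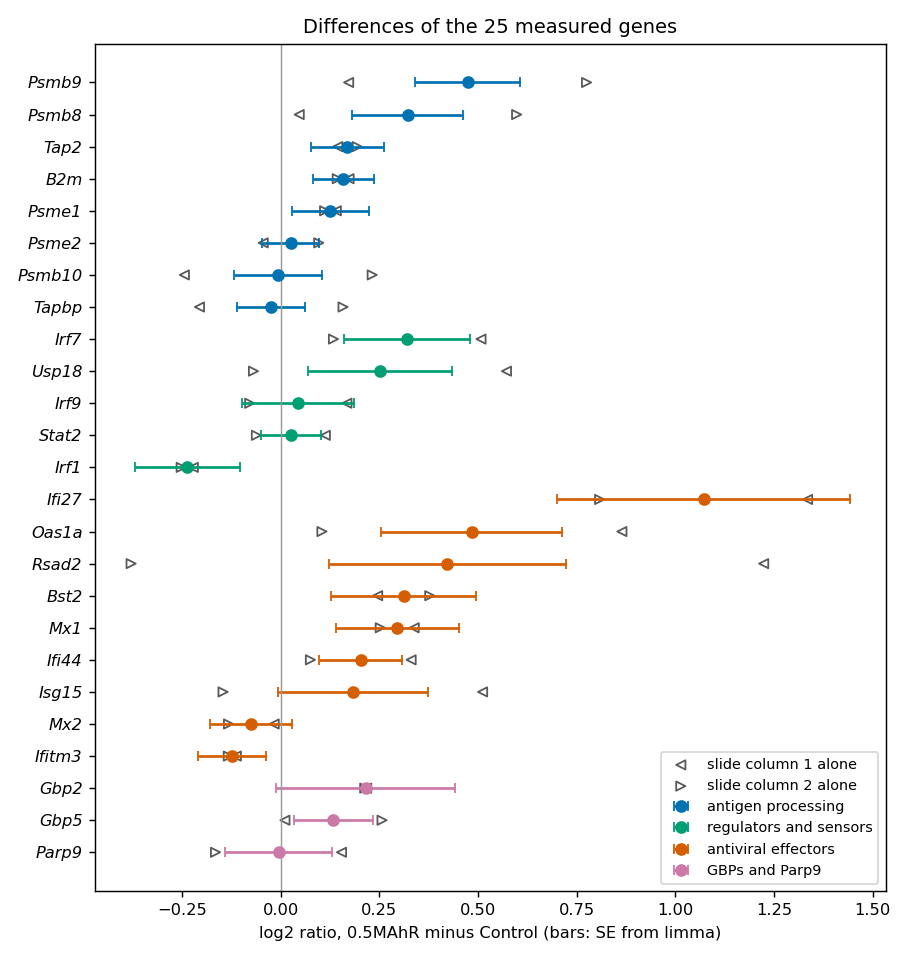
Mixture minus control difference (log2 scale, horizontal axis) of each of the 25 tested genes, ordered within role, with the standard error of the limma fit as a bar and, as open triangles, the difference within each slide column. Most points lie to the right of zero, Ifi27 stands farthest out at 1.07, and for Rsad2 the triangles of both columns lie on opposite sides of zero.

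The arrays differed by position as well as by exposure. On each slide column (the first digit of an array's position) sat 2 control and 2 mixture pools: control pools 5 and 7 with mixture pools 2 and 4 in column 1, and control pools 6 and 8 with mixture pools 1 and 3 in column 2. The first principal component, with 69.1% of the variance, separated the columns, and 56.9% of all genes tested differed between them, against 6 of the 25 listed genes. Column was therefore a term of the fit, and values within each column are given beside the pooled ones. The median liver signal of an array was 81 to 94 over a background of 68 to 73, between 63.6% and 81.8% of the 33 probes were well above background on an array, and no spot was saturated. In the reference channel none of the 25 genes was called (0.00946% of all genes were) and 1 had an unadjusted p under 0.05 (Ifitm3, at -0.06, beside 3.62% of all genes), with differences from -0.06 to 0.07.

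Antigen processing genes are taken in the order of the pathway: the proteasome that cuts proteins, the activators that open it, the transporter that carries peptides into the endoplasmic reticulum, and the proteins that hold the class I complex. Of the 8 tested genes 6 had positive and 2 negative differences, with a median of 0.14 (0.09 in column 1 and 0.18 in column 2). Psmb9, the inducible beta1i subunit, had log2 ratios of -0.41, -0.17, -0.74 and -0.27 in control pools 5, 6, 7 and 8, and of 0.44, -0.39, 0.68 and -0.42 in mixture pools 1, 2, 3 and 4. Mixture pools 1 and 3 lay above every control pool, while pools 2 and 4 lay among them. Those pairs belong to different slide columns, and the control pools of column 2 were also the higher ones, so that within columns the difference was 0.17 in column 1 and 0.77 in column 2. The fitted difference was 0.47 ± 0.13 (SE, n = 4 pools per group, adjusted p = 0.436), or 1.39-fold.

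Psmb8, the beta5i subunit encoded near Psmb9, had ratios of -1.03, -1.25, -0.61 and -1.26 in the control pools and of -0.79, -0.64, -0.52 and -0.91 in the mixture pools. Control pools 5, 6 and 8 lay below all mixture pools, and control pool 7 lay above all but mixture pool 3. The difference was 0.32 ± 0.14 (adjusted p = 0.780), or 0.05 and 0.60 within columns 1 and 2. The remaining inducible subunit, Psmb10 (beta2i), which lies on another chromosome, differed by -0.01 ± 0.11, from -0.24 in column 1 to 0.23 in column 2. Its sign thus turned with the column, while that of Psmb8 and Psmb9 did not.

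The proteasome activator subunits Psme1 and Psme2 differed by 0.13 ± 0.10 and 0.03 ± 0.07, with all 8 ratios of Psme1 between 0.99 and 1.43. Tap2, a chain of the peptide transporter, differed by 0.17 ± 0.09, with ratios from -1.47 to -0.95 in the control pools and from -1.27 to -0.79 in the mixture pools. Tap1, its partner chain, was well above background on 1 control and 1 mixture array and was not tested. Tapbp (tapasin), which bridges the transporter and class I molecules, differed by -0.02 ± 0.09, with opposite signs in the columns (-0.21 and 0.16). B2m, the light chain of class I, showed the tightest control pools of the antigen processing genes, and its pool values, picked out here after they were seen, were 0.92, 1.00, 0.90 and 0.94 in the control pools and 0.96, 1.07, 1.27 and 1.09 in the mixture pools. Mixture pools 2, 3 and 4 lay above every control pool and pool 1 lay within them. Its difference was 0.16 ± 0.08 (adjusted p = 0.830), much the same in columns 1 and 2 at 0.17 and 0.14. Psmb9, Psmb8, Tap1 and Tap2 are consecutive genes on chromosome 20 in the RefSeq table, inside the MHC region.

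Among regulators and sensors, 4 of the 5 tested genes had positive differences and 1 a negative one, with a median of 0.04, which was 0.17 in column 1 and -0.07 in column 2. That count includes Irf9 and Usp18, which were tested through the mixture arrays alone. Of the 3 genes above background on all 8 arrays 2 were positive and 1 negative, with a median of 0.03. Irf7, the transcription factor that amplifies type I interferon production, had ratios of 0.38, 0.18, 0.04 and -0.19 in the control pools and of 0.01, 1.03, 0.25 and 0.40 in the mixture pools. Mixture pool 2 stood above all others, mixture pool 4 lay just above the highest control pool, and pools 1 and 3 lay among the controls. The difference was 0.32 ± 0.16 (adjusted p = 0.830), or 1.25-fold, and was 0.51 in column 1 and 0.13 in column 2. Stat2 and Irf9, which belong to the type I complex, differed by 0.03 ± 0.08 and 0.04 ± 0.14.

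Usp18, which removes Isg15 from proteins and damps the interferon receptor, had ratios of -0.06, 0.05, -0.60 and -0.10 in the control pools and of -0.30, 0.48, 0.11 and 0.01 in the mixture pools. The lowest value was control pool 7 and the highest mixture pool 2. Usp18 was well above background on 3 mixture arrays and on no control array, so that its control level is uncertain. Its mean liver signal was 1.16-fold higher in the mixture arrays, which is a measured ratio and not a lower bound. The fitted difference was 0.25 ± 0.18 (adjusted p = 0.896), at 0.57 in column 1 and -0.07 in column 2. Irf1, a factor that drives class I and immunoproteasome genes, was the member of this role with a negative difference, -0.24 ± 0.13, with ratios from 0.15 to 0.73 in the control pools and from 0.12 to 0.74 in the mixture pools. Irf8 and the RNA sensor Ifih1 were above background on no array, and the RNA sensor Ddx58 had no named probe.

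The antiviral effectors had the largest median difference of the 4 roles, 0.30 over 9 tested genes, of which 7 were positive and 2 negative. Of the 7 effectors above background on all 8 arrays 5 were positive and 2 negative, also with a median of 0.30. The median over the 9 was 0.34 in column 1 and 0.08 in column 2. Ifi27, an interferon-induced protein of mitochondrial and nuclear membranes, had the largest difference among the 25 genes. Its ratios were 0.61, 1.25, -0.45 and -0.31 in the control pools and 1.5, 1.92, 1.06 and 0.91 in the mixture pools. All 4 mixture pools lay above control pools 5, 7 and 8, and pools 1 and 2 lay above control pool 6 as well. Its difference was 1.07 ± 0.37 (adjusted p = 0.624), or 2.10-fold, and it was 1.33 in column 1 and 0.81 in column 2. The control pools alone spread over 0.80 (SD), against 0.46 in the mixture pools. Ifi27 was also among the brighter members, well above background on all 8 arrays.

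Oas1a, which makes the 2′-5′ oligoadenylates that activate RNase L, had ratios of 0.18, 0.66, 0.32 and 0.55 in the control pools and of 0.63, 1.66, 0.80 and 0.56 in the mixture pools. Mixture pool 2 stood far above the rest, pool 3 also lay above the controls, and pools 1 and 4 lay within the control range. The difference of 0.48 ± 0.23 (adjusted p = 0.811) was 0.86 in column 1 and 0.10 in column 2. It was well above background on 2 control and 3 mixture arrays.

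Rsad2 (viperin), an enzyme that makes a chain-terminating nucleotide, had ratios of 2.82, 3.23, 3.42 and 3.81 in the control pools and of 3.13, 4.37, 3.15 and 4.32 in the mixture pools. Mixture pools 2 and 4 lay above all control pools, and pools 1 and 3 below all control pools but pool 5. The difference was 1.22 in column 1 and -0.38 in column 2, and the fitted 0.42 ± 0.30 (adjusted p = 0.891) averages those opposite values. Isg15, the ubiquitin-like modifier, also had its highest mixture values in pools 2 and 4, with ratios of 2.30, 2.04, 1.65 and 1.87 in the control pools and of 1.86, 2.78, 1.76 and 2.19 in the mixture pools. Its difference was 0.51 in column 1 and -0.15 in column 2, and 0.18 ± 0.19 in the fit (adjusted p = 0.923).

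Bst2 (tetherin), which holds budding viruses on the cell surface, had another order of pools. Its ratios were 2.46, 2.64, 1.87 and 2.07 in the control pools and 2.43, 2.57, 3.04 and 2.25 in the mixture pools. Only mixture pool 3 exceeded the control range. The difference was 0.31 ± 0.18 (adjusted p = 0.868), at 0.25 and 0.38 in columns 1 and 2. Mx1, a dynamin-like GTPase that traps viral nucleocapsids, had ratios of 0.71, 0.43, 0.49 and 0.06 in the control pools and of 0.20, 1.19, 0.79 and 0.70 in the mixture pools, where pools 2 and 3 lay above every control pool. Its difference was 0.30 ± 0.16 (adjusted p = 0.859). Its neighbour Mx2 did not share this order, with 0.29, 1.03, 0.27 and 0.57 in the control pools and 0.79, 0.25, 0.55 and 0.26 in the mixture pools. For Mx2 the high values of both groups were column 2 pools, and the difference was -0.07 ± 0.10. Ifi44 differed by 0.20 ± 0.10 and Ifitm3, a membrane protein that blocks virus entry, by -0.12 ± 0.09. Of the 3 effectors not tested, Ifit2 was above background on 2 arrays of each group with a difference of 0.04, and Ifit3 and Oasl were above background on no array.

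The guanylate-binding proteins are GTPases that act on vacuoles of pathogens and respond mainly to interferon gamma. Gbp2 had ratios of 0.87, -0.04, 0.09 and 0.40 in the control pools and of -0.06, 0.48, 0.84 and 0.92 in the mixture pools. Both groups spanned nearly the whole range, and the difference was 0.22 ± 0.23 (adjusted p = 0.923). Gbp5 differed by 0.13 ± 0.10 and Parp9 by -0.01 ± 0.13. The chemokine Cxcl10, not tested, was above background on no control array and on 2 mixture arrays, those of pools 2 and 4. Its liver signal after background subtraction was only 26.5 and 38.5 there, beside 24 in control pool 5, so that nothing can be said of its change. Dtx3l, the partner of Parp9, was above background on no array.

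**Figure D2:**
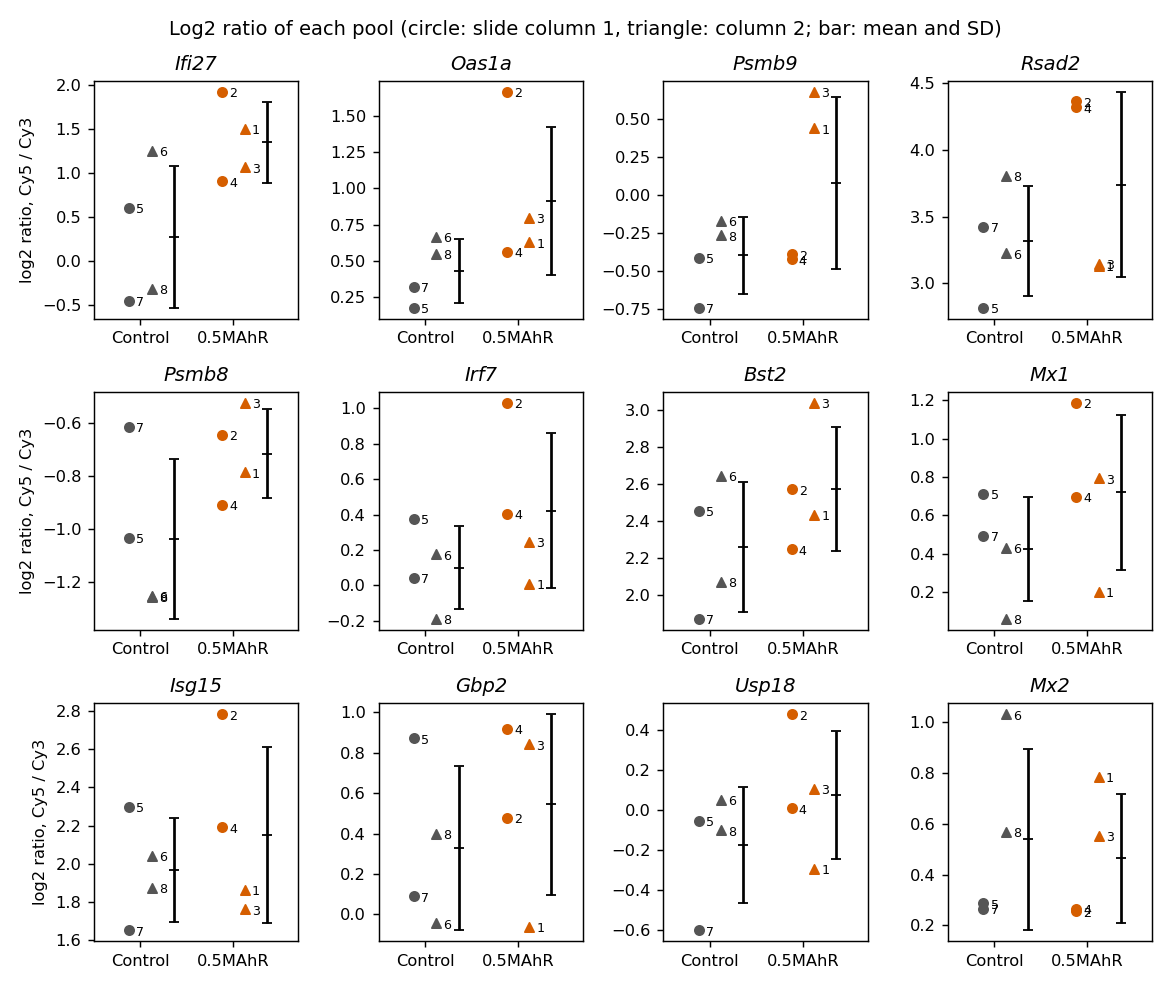
Log2 ratio of liver over reference signal (vertical axis) in each of the 8 pools for the 12 genes given pool by pool under the naming rule, with control and mixture pools side by side, numbered, with circles for slide column 1 and triangles for column 2, and with the group mean and SD as a bar. In Oas1a, Irf7, Usp18 and Isg15 the single highest point is mixture pool 2, in Bst2 it is mixture pool 3, and in every panel the points of both groups overlap.

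Whether single pools carried these differences was examined by setting each pool against the mean of the control pools of its own column. Mixture pool 2 exceeded that mean by 1.84 for Ifi27, 1.41 for Oas1a, 1.25 for Rsad2, 0.82 for Irf7, 0.81 for Usp18 and 0.81 for Isg15. Mixture pool 4, the other pool of column 1, exceeded it by 1.20 for Rsad2 and 0.83 for Ifi27, but by only 0.31 for Oas1a and 0.19 for Irf7. By median, mixture pool 2 was thus the strongest pool for effectors. The count did not set it apart, at 7 of 9 above the control mean, as in mixture pool 4. Control pools 5 and 6 had 7 and 8 of 9, but those counts are not a like measure. The control pools of a column form its mean, so they deviate from it by equal and opposite amounts. The median of mixture pool 2 was 0.58 for effectors, against 0.14 for antigen processing. Mixture pool 3 had the opposite emphasis: it exceeded the control mean in 8 of 8 antigen processing genes, with a median of 0.31, and by 0.90 for Psmb9 and 0.73 for Psmb8, while its median over effectors was 0.16. Mixture pool 1 had a median of -0.01 over the 25 genes, with 11 of them above the control mean, where over all genes tested its median was -0.04. Its roles lay on opposite sides, with 6 of 8 antigen processing genes above (median 0.15) and 1 of 5 regulators (median -0.25), while the effectors were at -0.02. Psmb9 (0.65) and Ifi27 (1.02) were above the control mean in pool 1 as well. Ifi27 lay above the control mean in all 4 mixture pools, the smallest margin being 0.59 in pool 3. That margin is within the spread of the controls of its column, where pools 6 and 8 lay 0.78 above and below their mean.

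**Figure D3:**
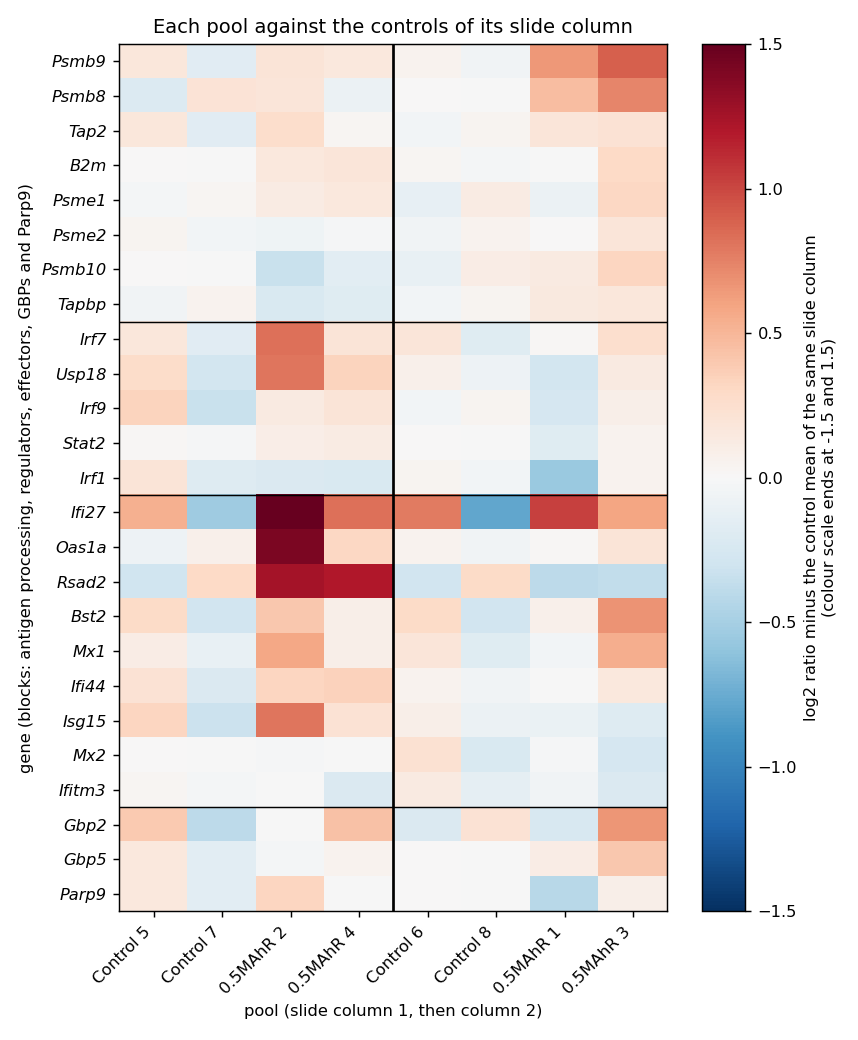
Deviation of each of the 8 pools (columns) from the control mean of its own slide column, on the log2 scale, for the 25 tested genes (lines, by role), in blue where below and red where above, within a colour scale from -1.5 to 1.5. Mixture pool 2 is high for Ifi27, Oas1a, Rsad2, Irf7, Usp18 and Isg15, mixture pool 3 for Psmb9 and Psmb8, and control pool 5 is high against control pool 7 in most genes.

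Pools of the same group also differed from each other. Within column 1, control pool 5 was above control pool 7 in 20 of the 25 genes with a median gap of 0.31, while over all genes tested that gap was 0.01. The 0.31 is larger than the median of 0.17 between the groups, but the measures are unlike. It compares single pools, which spread more than the means of 4 pools behind the 0.17. Within column 2, mixture pool 3 was above mixture pool 1 in 21 of 25 genes with a median gap of 0.24, beside 0.03 over all genes. In that pair the gap held for 8 of 8 antigen processing genes (median 0.21) and 5 of 5 regulators (0.34), but for 5 of 9 effectors (0.02). Mixture pools 2 and 4 were separated mainly in the effectors, where pool 2 was above pool 4 in 7 of 9 with a median gap of 0.32. Of both control pairs, pools 6 and 8 had the smaller median gap, 0.06, with 17 of 25 genes higher in pool 6. Their effectors were not close, with 8 of 9 higher in pool 6 and a median gap of 0.28, against 7 of 9 and 0.22 for control pools 5 and 7.

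Leaving out 1 pool at a time left 17 to 22 of the 25 differences positive and moved the median between 0.09 (without control pool 7) and 0.22 (without mixture pool 1). Over all genes tested, 45.1% (without control pool 7) to 50.4% (without mixture pool 1) were positive. None of the 25 genes was called in any of these 8 fits. The number with an unadjusted p under 0.05 was lowest, 1, without mixture pool 2 (beside 627 of all 10566). It was highest, 9, without mixture pool 1 (beside 718 of all 10566). The effectors had their lowest median, 0.19, without mixture pool 2, nearly the same 0.20 without mixture pool 3 and 0.21 without control pool 7, and their highest, 0.42, without mixture pool 1. Oas1a went from 0.48 to 0.19 without mixture pool 2, Irf7 from 0.32 to 0.16, Usp18 from 0.25 to 0.09 and Isg15 from 0.18 to -0.0016. Isg15 and Usp18 were reduced as far without control pool 7, the lowest control pool for both, to -0.01 and 0.08. Antigen processing depended most on mixture pool 3, without which its median was 0.07. Ifi27 kept a difference between 0.81 and 1.44 and Psmb9 between 0.37 and 0.60, and Psmb9 was the gene whose unadjusted p was under 0.05 in all 8 fits, each with the column term. That result needed the term: without it the SE of Psmb9 over all 8 pools was 0.27 in place of 0.13, and 1 of the 25 genes had an unadjusted p under 0.05 (beside 162 of all 10566), and with slide row as a random block in its place none had (beside 32). Psmb8 had its lowest difference, 0.21, without mixture pool 3, and so had Bst2 (0.18) and Mx1 (0.19). Bst2 was nearly equal without control pool 8 (0.18), and Mx1 without mixture pool 2 (0.19). Rsad2 ranged from 0.14 without control pool 5 to 0.70 without control pool 8. Gbp2 was at 0.04 without mixture pool 3 and at 0.06 without control pool 7. The median of the regulators was near 0 without control pool 7, mixture pool 3 or mixture pool 4, and highest, 0.15, without control pool 5.

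**Figure D4:**
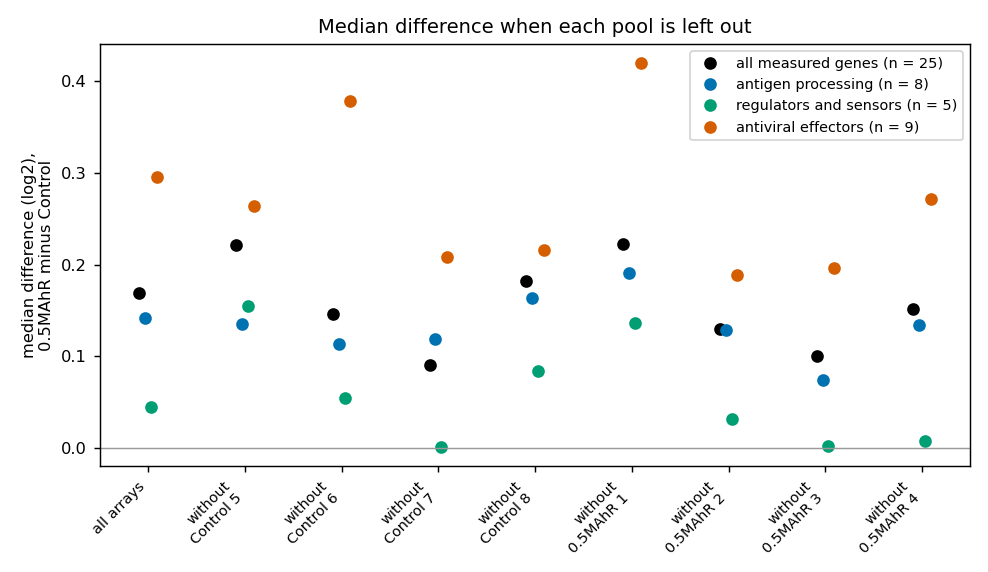
Median mixture minus control difference (log2 scale, vertical axis) over the 25 tested genes and over the antigen processing genes, regulators and effectors, with all 8 arrays and with each pool left out in turn (horizontal axis). The median over all 25 stays between 0.09 and 0.22, and the effectors lie highest in every setting but not by the same margin, from 0.19 without mixture pool 2 to 0.42 without mixture pool 1.

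Other genes of the pathway were taken from 5 written lists that do not hold the 34 genes, 103 genes in all, of which 63 were tested. None was called by limma, and 10 had an unadjusted p under 0.05 (15.9%, beside 6.35% of all genes). Of the 63, 47 were positive (74.6%, beside 46.8% of all genes), with a median of 0.04 beside -0.01. Ligands, receptors and signalling proteins were evenly divided (6 positive and 5 negative of 11 tested, median 0.00). Further interferon-induced genes were positive in 15 of 22 (median 0.07), class I heavy chains and loading proteins in 7 of 7 (0.12), class II genes in 6 of 7 (0.26) and the constitutive proteasome in 13 of 16 (0.03). Ccl5, a chemokine of lymphocytes and an interferon target, had the smallest p of them. Its ratios were 3.31, 3.23, 3.14 and 2.89 in the control pools and 3.43, 3.71, 3.97 and 3.94 in the mixture pools, with no overlap, a difference of 0.62 ± 0.13 and an adjusted p of 0.289. Cxcl9, an interferon-gamma-induced chemokine picked out after its values were seen, was the other gene of these lists without overlap (1.32% of all genes had none), at 0.34 to 0.53 in the control pools and 0.57 to 1.13 in the mixture pools (0.44 ± 0.13, adjusted p = 0.460). Trim14 differed by 0.43 ± 0.10 (adjusted p = 0.311). On the negative side stood Stat3 at -0.31 ± 0.11 (adjusted p = 0.683) and Oas1b at -0.17 ± 0.08 (adjusted p = 0.780), a paralogue of Oas1a with the opposite sign.

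The liver identity of the samples was plain, with all 7 hepatocyte markers tested and a summed liver-channel signal of 783939 to 810180 in control pools and 772367 to 830314 in mixture pools. The mean of that sum was higher in the mixture pools (805780) than in the control pools (799307). In log2 ratios the direction was the opposite. Each of those 7 markers had a negative difference, where 46.8% of all genes were positive, and none was called. Their median was -0.12, at -0.06 in column 1 and -0.30 in column 2. All 11 Kupffer cell markers were tested, 9 of them with a positive difference and none called (median 0.15). Their summed signal was 12616, 14594, 13702 and 12852 in control pools 5, 6, 7 and 8, and 12729, 16005, 16790 and 14224 in mixture pools 1, 2, 3 and 4. Mixture pools 2 and 3, in which the interferon and antigen processing genes were high, thus had the highest Kupffer marker sums, and mixture pool 1 a sum within the control range. Other pools did not follow that order. Mixture pool 4, with 17 of the 25 genes above its control mean as in pool 2, also had a sum within the control range. The order of mixture pools 2 and 4 held for the sum only. In log2 ratios every Kupffer marker but C1qa was higher in pool 4 (Marco 3.85 beside 3.26, C1qa 5.41 beside 5.48). Clec4f and C1qb were nearly equal in these pools. Every marker but C1qb was also higher in pool 4 than in both control pools of column 1. Control pool 5, above control pool 7 in 20 of the 25 genes, had the lowest sum. The part of Kupffer cells in the result was not tested. Lymphocyte and natural killer markers summed to 1132 to 1211 in control and 1130 to 1209 in mixture pools, with 8 of the 13 that had a probe, among them Cd3e, Cd8a, Cd4 and Ncr1, above background on no array. Plasmacytoid dendritic cell markers summed to 395 to 440 in control and 399 to 433 in mixture pools, with Tlr7 and Tlr9 above background on no array. Neutrophil sums were 833 to 1222 in control and 930 to 1048 in mixture pools, with Elane and Csf3r above background on no array. Endothelial sums were 2390 to 3046 and 2626 to 3128 (Tek above background on no array), stellate sums 5586 to 6818 and 5181 to 8246, cholangiocyte sums 292 to 322 and 286 to 363, and erythroid sums 219870 to 311069 and 294036 to 331540, in control and mixture pools. The part of these in the result was not tested.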

How the data were processed

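Liver RNA was measured in Cy5 against a universal rat reference in Cy3 on 8 Agilent arrays, with the same dye orientation throughout, which leaves dye bias common to the groups and unmeasured. Sample labels gave the groups. The deposited intensity values of each spot were written by Agilent's Feature Extraction software, release 11.0.1.1 per the file headers. Its median foreground and background signals were used here. Marks for spots above background, saturated or outlying were deposited with them. The deposited value table, an alternative here, held log2 ratios of Cy5 over Cy3, which correlated with r of 0.997 to 0.998 with loess ratios without background correction. The medians of its columns were -0.0389 to -0.0326, and how it was centred stays unknown.

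The limma package (3.58.1, under R 4.3.3) corrected background by normexp (offset 50) and normalised arrays by loess, without weight for control spots. Outlier spots were dropped, and the spots of each probe averaged. Of 30367 probes 18005 received a symbol through RefSeq accessions (table of assembly GRCr8, used for names). A probe was tested if, on 3 or more of the 4 arrays of a group, over 50% of its spots were marked well above background in Cy5, which left 11406 probes and, with the brightest probe per gene, 10566 genes. Of the 34 listed genes 20 were above background on all 8 arrays. Of the 25 tested, 4 (Irf9, Usp18, Oas1a and Parp9) passed through the mixture arrays only. Signal over background, not read depth, thus set which genes were measured, and precision is limited by the number of arrays. The fit had group and slide column as terms, with Benjamini-Hochberg adjustment over all genes and a two-sided threshold of 0.05. For Usp18 the 1.16-fold ratio compared mean liver signals after loess and Aquantile. A floor for each control array, the lowest signal marked well above background, did not change the control mean, so the ratio is no bound. Dye bias could affect it. The main fit, with group and slide column as terms, was first tested on simulated log ratios.

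The listed genes, the other lists and the column term were chosen with earlier results of these data known. By rule, all listed genes were named. Pool values were given for the 8 tested genes with the largest differences and the 4 further ones with the widest range within a group, and from the pathway lists the 2 genes with the smallest p in each direction were named. Alternatives covered the column term, background, normalisation, the filter, probes per gene, outlier spots, the variance prior and single pools. Promoter windows came from RefSeq sequences, with 29 of 34 genes matched.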

Additional observations from a re-analysis of the deposited data

Results flagged for a closer look

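Each of 50 groups of 4 pools (25 genes in 2 groups) was checked for a pool far from the others, and chance alone marks about 1 such group in 20. For Irf1, mixture pool 3 stood at 0.74 while the other mixture pools lay between 0.12 and 0.12, a gap of 0.986 of the whole range. The value of pool 3 lay at the top of the control pools (0.54, 0.73, 0.15 and 0.64). The other mixture pools were thus the low ones, together with control pool 7 at 0.15. The difference was -0.36 without mixture pool 3.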

How the results depend on the processing

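By replicate number, no paired analysis was possible because control pools are numbered 5 to 8 and mixture pools 1 to 4, so that the groups share none. By position, each slide row held 1 control and 1 mixture array, and that pairing was fitted as the random block below. None of the tested listed genes passed the threshold under any alternative with a test (limma), and their median difference stayed positive, from 0.09 to 0.22. Over all genes, 5 passed it. That count was 1 without the column term, 0 with slide row as a random block, 3 with median centring, 0 with the scanner software's processed signals (860 at an unadjusted p under 0.05), 14 with the Cy5 signal alone, 3 where all 8 arrays had to be above background, 3 with a trended and robust prior, and 1 to 11 with 1 pool left out. In column 1 alone the sign turned for Psme2 (-0.044) and Parp9 (0.15). In column 2 alone it turned for Psmb10 (0.23), Tapbp (0.16), Irf9 (-0.078), Stat2 (-0.061), Usp18 (-0.069), Isg15 (-0.15) and Rsad2 (-0.38). Small values turned with offset 16 (Psmb10 0.0014), median centring (Psmb10 0.037), processed signals (Tapbp 0.0039, Stat2 -0.014) and Cy5 alone (Psmb10 0.0097, Tapbp 0.0043). With 1 pool left out, signs turned within -0.099 to 0.076 for Psmb10, -0.10 to 0.13 for Parp9, -0.079 to 0.035 for Tapbp, -0.012 to 0.28 for Isg15, -0.11 to 0.15 for Irf9, -0.024 to 0.055 for Psme2, -0.16 to 0.030 for Mx2 and -0.0039 to 0.091 for Stat2. The cause was not tested. Of the listed genes with a probe 8 were too dim to test, so that nothing can be said of their change.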
